A study of Danio rerio with 5 samples.

Results

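The genes described here are 5 keratins and the adhesion gene epcam, which are known for their expression in the enveloping layer of the zebrafish embryo. They were chosen by name: krt97 by its identifier ENSDARG00000000212, and krt5 (ENSDARG00000058371), krt4 (ENSDARG00000017624), krt8 (ENSDARG00000058358), cyt1 (ENSDARG00000092947) and epcam (ENSDARG00000040534) by symbol. All 6 were found among the 26158 genes of the tables, and all 6 passed the filter on low values described below. The values are the authors' whole-number counts in all 5 libraries.

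The enveloping layer is the thin outer epithelium of the fish blastula and gastrula, which spreads over the yolk during epiboly and later forms the periderm. Keratins build its intermediate filaments, in which an acidic (type I) keratin pairs with a basic (type II) keratin, and desmosomes anchor these filaments at cell borders. Epcam is a membrane glycoprotein of epithelia that acts in cell adhesion, and in zebrafish it is known to act in the enveloping layer during epiboly. The microRNA family miR-430 is made in large amounts by the early zygotic genome of the fish and speeds the clearance of maternal transcripts.

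Poly(A)+ RNA of whole embryos was sequenced at the shield stage, 6 h after fertilization, with 1 library of 15 pooled embryos in each of 5 groups. Wild-type embryos were of a mixed TU/AB/TL/TLF background and were not injected. The other groups were all MZdicer (hu896/hu896), which lack maternal and zygotic Dicer, the enzyme that cuts microRNA precursors. One MZdicer group was not injected, and the remaining groups received miR-430 at the 1-cell stage, as 1 nl of a 25 µM stock. The injected form was a duplex, a hairpin cut by Argonaute 2 in place of Dicer (hairpin library), or that hairpin carrying 3 phosphorothioate bonds (3xPS hairpin library). No library was made from MZdicer embryos injected with a mock solution or another RNA, so an effect of injection cannot be told apart from miR-430. Likewise, strain and exact stage are confounded with the loss of Dicer and cannot be told apart from it. In whole embryos, fewer enveloping layer cells and less RNA per cell cannot be told apart either.

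Total gene counts ranged from 14867084 in MZdicer to 26300080 in wild type. Levels are in CPM, counts relative to the library size and scaled by TMM factors, and a gene was measured when its mean over the 5 libraries was at least 1 CPM, which held for 14097 genes. With 1 library per group there is no replicate check and no test between conditions, so no p-value is given and every statement compares libraries. Square brackets hold 95% exact intervals, which cover counting error only. Genes count as called where the difference was at least 2-fold after 0.5 CPM was added to both levels, and the interval excluded equality. DICER1, the mutated gene, was at 36.5 CPM in the wild-type library and at 20.1 to 23.0 CPM in the MZdicer libraries, and whole-gene counts do not show whether its transcript carries the mutation. The enveloping layer genes cldne, a claudin, and grhl3, a Grainyhead transcription factor, were present in every library, at 401 to 574 CPM and 179 to 211 CPM.

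All 6 genes were lower in MZdicer than in wild type by their intervals, as were 57.9% of the genes with a mean of at least 100 CPM. Of the 6, epcam and krt5 were the 2 that were called, where 5.81% of all measured genes were called lower. None of the 6 was called against MZdicer after any injection, where 1.54% to 7.51% of all measured genes were called. That absence lies near those shares and is no result about the 6 genes. The 5 keratins were 1.13 to 1.63-fold higher in the duplex library than in MZdicer. Of the genes with a mean of at least 100 CPM, 53.5% were also higher there by their intervals. In the duplex library cyt1 was level with wild type. The gene epcam was at 30.1% to 36.1% of wild type in all 4 MZdicer libraries. With the 3xPS hairpin all 6 genes were at their lowest level of the 5 libraries, but krt97 and krt5 differed from MZdicer only within counting error. The share of all measured genes with their lowest level in that library was not counted. The 6 of 6 therefore has no background beside it.

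Per kilobase of the deposited length, krt8 was the highest of the 6 in wild type at 1345 CPM per kilobase, and ranked 34 among all 26158 genes. The gene krt4 followed at 1249 CPM per kilobase and krt5 at 812, with ranks of 39 and 62. Then came krt97 at 405, epcam at 295 and cyt1 at 171 CPM per kilobase, with ranks of 184, 274 and 495. In MZdicer the order of the first 4 was the same, but cyt1 at 106 CPM per kilobase stood above epcam at 97.5.

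**Figure D1:**
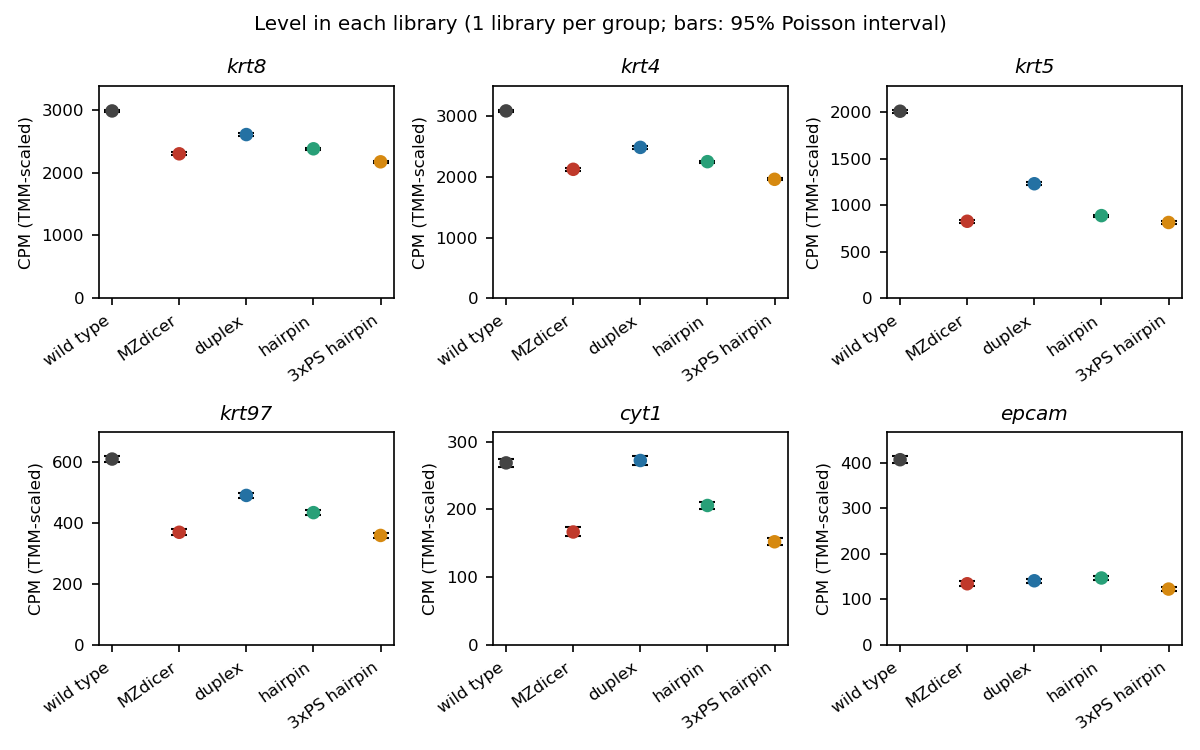
Level of each of the 6 genes in the 5 libraries, in CPM with the 95% exact Poisson interval of the count. Each panel starts at 0 and has its own scale, and the 3xPS hairpin library is the lowest in all 6 panels, from 2170 CPM for krt8 to 123 CPM for epcam. For krt97 and krt5 its difference from MZdicer was within counting error. The share of all genes that were lowest in that library was not counted.

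The type II keratins krt8, krt4 and krt5 are the most abundant of the set. krt8, whose usual partner in simple epithelia is keratin 18, was at 2978 CPM in the wild-type library and 2297 CPM in the MZdicer library, then 2603 CPM after duplex, 2377 CPM after hairpin and 2170 CPM after 3xPS hairpin injection. It varied least of the 6 genes, and its highest level was 1.37-fold its lowest. In MZdicer it was 1.30-fold lower than in wild type [1.28, 1.31].

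The gene krt4, an abundant keratin of the zebrafish surface epithelium, was at 3085 CPM in the wild-type library and 2124 CPM in the MZdicer library, then 2485 CPM after duplex, 2250 CPM after hairpin and 1960 CPM after 3xPS hairpin injection. Its libraries stood in the same order as those of krt8, with wild type highest. It was 1.45-fold lower in MZdicer than in wild type [1.43, 1.47].

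The third type II keratin, krt5, was at 2007 CPM in the wild-type library and 827 CPM in the MZdicer library, then 1229 CPM after duplex, 888 CPM after hairpin and 814 CPM after 3xPS hairpin injection. Wild type stood well above every MZdicer library, and the duplex library was the highest of the latter. The gene was called lower in MZdicer than in wild type, by 2.43-fold [2.38, 2.47], in the hairpin library by 2.26-fold [2.23, 2.30] and in the 3xPS hairpin library by 2.47-fold [2.43, 2.51]. With the duplex it was 1.63-fold lower than in wild type [1.61, 1.66], which was not called.

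The other keratins of the set are krt97 and the type I keratin cyt1. krt97 was at 608 CPM in the wild-type library and 369 CPM in the MZdicer library, then 489 CPM after duplex, 433 CPM after hairpin and 358 CPM after 3xPS hairpin injection. The order of its libraries was that of krt4, krt5 and krt8, and it was 1.65-fold lower in MZdicer than in wild type [1.60, 1.70].

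The levels of cyt1 were 269 CPM in the wild-type library and 167 CPM in the MZdicer library, then 272 CPM after duplex, 206 CPM after hairpin and 152 CPM after 3xPS hairpin injection. It was the only gene of the 6 whose duplex library was not below wild type, at a ratio of 1.01 [0.980, 1.05]. That ratio fell on the other side of equality under some other scalings. In MZdicer cyt1 was 1.61-fold lower than in wild type [1.54, 1.69].

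The adhesion gene epcam was at 407 CPM in the wild-type library and 134 CPM in the MZdicer library, then 141 CPM after duplex, 147 CPM after hairpin and 123 CPM after 3xPS hairpin injection. The 4 MZdicer libraries lay close to each other and far below wild type. Against wild type it was called lower in MZdicer by 3.03-fold [2.89, 3.18], after duplex injection by 2.89-fold [2.78, 3.00], in the hairpin library by 2.77-fold [2.67, 2.88] and in the 3xPS hairpin library by 3.32-fold [3.19, 3.46].

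**Figure D2:**
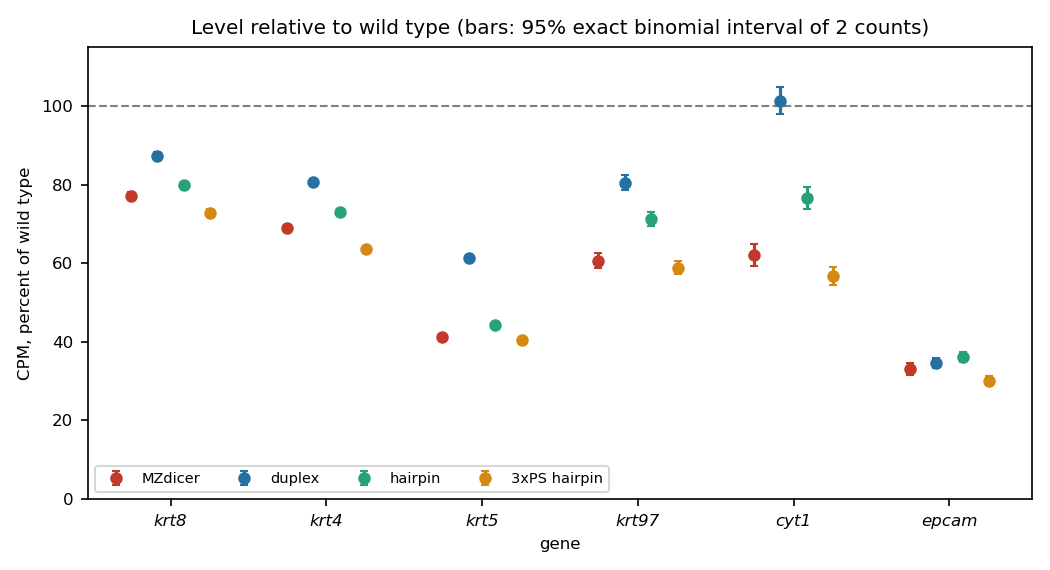
Level of each gene in the 4 MZdicer libraries as a percent of its level in wild type (100%), with 95% intervals that cover counting error only. epcam lies between 30.1% and 36.1% in all 4 libraries, whereas cyt1 runs from 56.7% with the 3xPS hairpin to 101% with the duplex.

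Setting MZdicer against wild type addresses the loss of Dicer, together with the strain and exact stage confounded with it. Of the 6 genes 2 were called lower and 0 higher, where 5.81% of all measured genes were called lower and 16.3% higher. With upper-quartile in place of TMM factors, 9.50% of the measured genes were called lower and 13% higher. All 6 had an interval below equality, which held for 35.6% of the measured genes and for 57.9% of the 2102 genes with a mean of at least 100 CPM, a group that holds all 6. The median log2 ratio of the 6 genes was -0.70, against 0.02 for all measured genes and -0.18 for the 2102 abundant ones. Ranked from the lowest ratio among these 2102 genes, epcam stood at 3 and krt5 at 14. The others lay further in, with krt97 at 155, cyt1 at 171, krt4 at 326 and krt8 at 640.

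**Figure D3:**
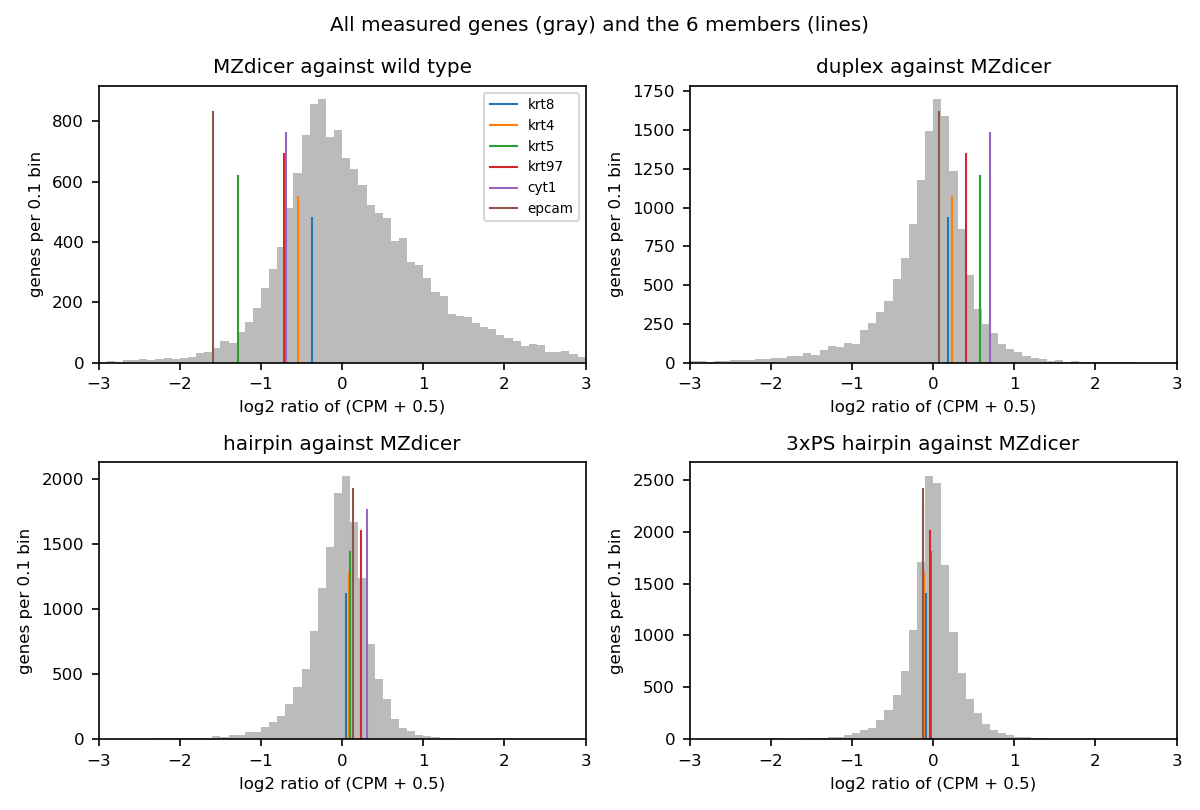
Log2 ratios of the 6 genes (vertical lines, whose height has no meaning) over the distribution of all 14097 measured genes, for MZdicer against wild type and for the 3 injected libraries against MZdicer. Values beyond the drawn axis are left out, and the 6 genes lie between -1.60 and -0.37 against wild type but within 0.71 of 0 after each injection.

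The duplex library asks what mature miR-430 does in MZdicer embryos. Of the 6 genes 0 were called in either direction, where 7.51% of measured genes were called. Intervals lay above equality for 5 of the 6, as they did for 26.4% of the measured genes and 53.5% of the abundant ones. The ratio to MZdicer was highest for cyt1, at 1.63 [1.56, 1.71], followed by krt5 at 1.49 [1.46, 1.52] and krt97 at 1.33 [1.29, 1.37]. The abundant keratins krt4 and krt8 had ratios of 1.17 [1.15, 1.19] and 1.13 [1.12, 1.15]. For epcam the ratio was 1.05 [0.993, 1.11], a difference not detectable at this depth.

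Against wild type, the duplex library had 1 of the 6 genes called lower, epcam, where 3.21% of measured genes were called lower. It was the lowest of the 2102 abundant genes in this comparison, with rank 1. Among the keratins, krt8 was at 87.4% of wild type, krt4 at 80.6%, krt97 at 80.4% and krt5 at 61.3%. All of these are ratios to the same wild-type library, and the comparisons above and below share either that library or the MZdicer library.

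The hairpin that Argonaute 2 cuts had smaller ratios to MZdicer than the duplex for the 5 keratins. Again 0 of the 6 genes were called, where 2.48% of measured genes were called. All 6 intervals lay above equality, which held for 20.1% of the measured genes and 36.4% of the abundant ones. The ratio was 1.23 for cyt1 [1.18, 1.30] and 1.17 for krt97 [1.14, 1.21]. The other 4 genes lay between 1.03 for krt8 [1.02, 1.05] and 1.09 for epcam [1.04, 1.16]. Against wild type 2 of the 6 genes, epcam and krt5, were called lower, where 5.71% of measured genes were.

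The 3xPS hairpin carries bonds that the labels link to resistance to trimming, which these libraries did not measure. Against MZdicer 0 of the 6 genes were called, where 1.54% of measured genes were called. Intervals lay below equality for 4 of the 6, as for 17.9% of the measured genes and 26.6% of the abundant ones. The ratios of these 4 were 0.945 for krt8 [0.932, 0.958], 0.923 for krt4 [0.910, 0.936], 0.913 for cyt1 [0.868, 0.961] and 0.913 for epcam [0.863, 0.966]. For krt5 and krt97 they were 0.984 [0.962, 1.01] and 0.972 [0.940, 1.01]. Against wild type the same 2 genes, epcam and krt5, were called lower, where 5.41% of measured genes were. With upper-quartile factors cyt1 was called lower there too, at a log2 ratio of -1.01 in place of -0.82.

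The comparison of both hairpins asks what the 3 phosphorothioate bonds change at the same dose and time. All 6 genes were lower with the 3xPS hairpin by their intervals, as were 19.4% of the measured genes and 33.9% of the abundant ones. None was called, giving 0 of 6 where 0.646% of measured genes were called. The ratio was lowest for cyt1, at 0.740 [0.709, 0.772], which ranked 8 from the lowest among the 2102 abundant genes. Then came krt97 at 0.828 [0.805, 0.851], epcam at 0.834 [0.795, 0.876], krt4 at 0.871 [0.860, 0.882], krt8 at 0.913 [0.902, 0.924] and krt5 at 0.917 [0.8996, 0.935].

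Between the hairpin and the duplex, 0 of 6 genes were called, where 3.04% of measured genes were called. The 5 keratins were lower with the hairpin by their intervals, from 0.722 for krt5 [0.710, 0.735] to 0.913 for krt8 [0.903, 0.923], while epcam had a ratio of 1.04 [0.996, 1.09]. Intervals below equality were found for 25.4% of measured and 50.3% of abundant genes. Between the 3xPS hairpin and the duplex, 0 of 6 were called, where 3.93% of measured genes were called, and all 6 intervals lay below equality, as for 24.6% of measured and 49.5% of abundant genes. The lowest ratio was that of cyt1, at 0.559 [0.537, 0.582], and krt5 followed at 0.662 [0.650, 0.674].

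Sorted from high to low, the libraries of krt97, krt5, krt4 and krt8 stood in 1 order: wild type, duplex, hairpin, MZdicer and 3xPS hairpin. This order was found in 3.38% of the measured genes and 6.14% of the abundant ones. For cyt1 the duplex and wild type changed places, an order found in 0.560% and 0.523%. For epcam the hairpin and the duplex did, an order found in 2.29% and 4.85%. Of the 24 steps between neighbouring libraries in these orders, 19 exceeded counting error and 5 did not. The 5 were MZdicer and the 3xPS hairpin for krt97 and krt5, the duplex and wild type for cyt1, and both the hairpin and duplex and the duplex and MZdicer for epcam. The spread between embryo pools of 1 group was not measured, so these steps have no replicate error to be read against.

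Summed, the 5 keratins were at 8947 CPM in the wild-type library and 5784 CPM in the MZdicer library, then 7079 CPM after duplex, 6153 CPM after hairpin and 5454 CPM after 3xPS hairpin injection. This was 0.865% of all counts in wild type and 0.582% in MZdicer. The sum stood at 64.6% of wild type in MZdicer embryos, then 79.1% after duplex, 68.8% after hairpin and 61.0% after 3xPS hairpin injection. Set against that sum, epcam was at 45.5 CPM per 1000 CPM of the 5 keratins in the wild-type library and 23.2 in the MZdicer library, then 19.9 after duplex, 23.9 after hairpin and 22.5 after 3xPS hairpin injection. The wild-type library thus stood apart from the other 4 also by this ratio, which does not depend on the scaling between libraries.

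The mix of the 5 keratins differed too. Per kilobase, krt5 made up 20.4% of their summed level in wild type and 12.9% in MZdicer embryos, then 15.6% after duplex, 13.0% after hairpin and 13.5% after 3xPS hairpin injection. Wild type was highest and the duplex library next. The share of krt8 ran the other way, with 33.8% in the wild-type library and 40.2% in the MZdicer library, then 37.0% after duplex, 38.9% after hairpin and 40.2% after 3xPS hairpin injection. The share of krt4 stayed between 31.4% and 33.3%, that of krt97 between 9.49% and 10.4%, and that of cyt1 between 3.97% and 5.45%. From the second count column and the last of those described below, the share of cyt1 was higher in every library, at 6.10% to 8.19% and 6.34% to 8.55%.

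**Figure D4:**
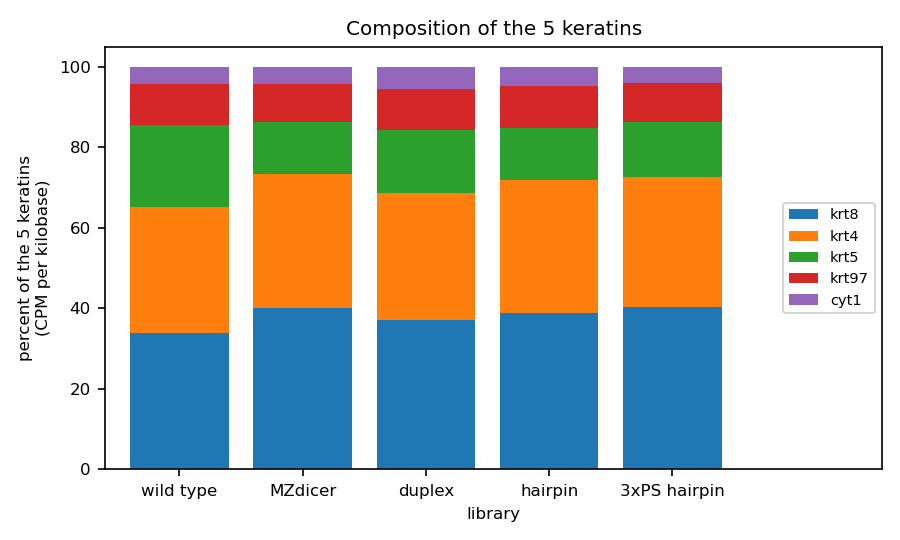
Share of each of the 5 keratins in their summed level per kilobase, by library, from the whole-number counts. krt5 takes 20.4% in wild type and 12.9% to 15.6% in the MZdicer libraries, and krt8 takes 33.8% in wild type and 37.0% to 40.2% in the others.

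Keratin genes resemble each other, so the way reads were assigned matters, and the deposited tables hold 3 count columns. The second column is never below the first and holds multiples of 0.5. It added 58.1% to 60.2% to the count of cyt1 and 18.2% to 21.4% to that of krt97. It added 0.534% to 0.657% to krt5, at most 0.0191% to krt4, and nothing to krt8 or epcam. What sets the columns apart is not given in the sources used here, and the levels of cyt1 and krt97 are uncertain by these amounts. As a percent of wild type, cyt1 was little moved by the column, at 62.0%, 62.3% and 62.6% in MZdicer from the 3 columns in turn.

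**Figure D5:**
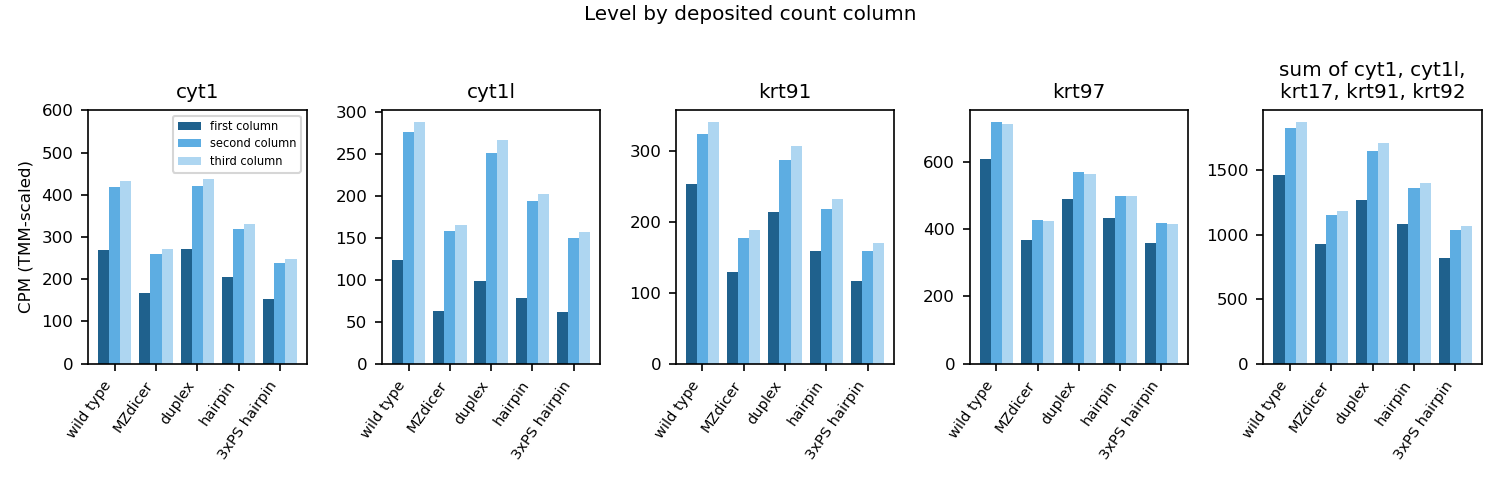
Level in CPM from each of the 3 deposited count columns, in the 5 libraries. The panels show cyt1, cyt1l, krt91, krt97 and the sum of cyt1, cyt1l, krt17, krt91 and krt92. The level of cyt1 depends on the column, at 269, 418 and 432 CPM in wild type from the 3 columns in turn.

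In the RefSeq annotation of assembly GRCz12tu, which is a later build than that of the counts, cyt1 lies on chromosome 19 between cyt1l and krt17, near krt92 and krt91. The summed level of these 5 genes, cyt1 included, was 1461 CPM in the wild-type library and 927 CPM in the MZdicer library, then 1269 CPM after duplex, 1080 CPM after hairpin and 820 CPM after 3xPS hairpin injection. Wild type was highest and the 3xPS hairpin library lowest. The genes krt5 and krt8 lie side by side on chromosome 23, next to krt18a.1. In MZdicer these neighbours were at 41.2%, 77.1% and 72.4% of wild type, so adjacent genes differed from each other. krt97 lies next to krt222 and krt96 on chromosome 22, krt4 lies near krt18b on chromosome 6, and the nearest annotated neighbours of epcam on chromosome 13 hold no keratin.

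The table holds 22 keratin identifiers, of which 7 were measured beside the 5 described so far. Of these 7, 2 were called lower in MZdicer than in wild type and 0 higher, where 5.81% of all measured genes were called lower and 16.3% higher. All 7 intervals lay below equality, as for 35.6% of the measured genes and 57.9% of the abundant ones, and the median log2 ratio was -0.97. krt99 was at 566 CPM in the wild-type library and 152 CPM in the MZdicer library, then 278 CPM after duplex, 301 CPM after hairpin and 205 CPM after 3xPS hairpin injection. In MZdicer it was 3.72-fold lower than in wild type [3.55, 3.89], rank 1 from the lowest among the 2102 abundant genes, and its ratio of hairpin to MZdicer was 1.98 [1.89, 2.08]. krt17 was called lower in MZdicer too, by 3.43-fold [3.16, 3.72], at 158 CPM in the wild-type library and 46.2 CPM in MZdicer embryos.

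The type I keratin gene krt18a.1, whose product is the usual partner of keratin 8, was at 2333 CPM in the wild-type library and 1690 CPM in the MZdicer library, then 1978 CPM after duplex, 1839 CPM after hairpin and 1629 CPM after 3xPS hairpin injection. Its libraries stood in the order of those of krt8. In MZdicer it was 1.38-fold lower than in wild type [1.36, 1.40], beside 1.30-fold for krt8. The remaining measured keratins, krt91, cyt1l, krt92 and KRT222, were at 255, 124, 655 and 3.23 CPM in wild type and at 130, 62.5, 521 and 1.47 CPM in MZdicer. KRT222 was 2.19-fold lower in MZdicer by CPM [1.36, 3.69] but was not called, as its log2 ratio with 0.5 CPM added was -0.92. The levels of krt91 and cyt1l depend on the count column. From the second column they were at 325 and 277 CPM in wild type and at 178 and 159 CPM in MZdicer. The other 10 keratin identifiers reached at most 0.908 CPM in any library. KRTCAP2, which shares the start of the symbol but encodes a subunit of the oligosaccharyltransferase and no keratin, was 4.06-fold higher in MZdicer [3.30, 5.04].

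Regulators of the enveloping layer and epidermis were covered by 13 measured genes. Of these 3 were called lower and 2 higher in MZdicer embryos relative to wild type, where 5.81% of all measured genes were called lower and 16.3% higher, so that the higher count lies near the background. The median log2 ratio was -0.41 against 0.02 for all measured genes. The lower ones were the Krüppel-like factor genes KLF4, by 3.01-fold [1.94, 4.88] on 24 counts in MZdicer, and klf2b, by 2.06-fold [1.93, 2.19], and the epidermal regulator TFAP2A, by 2.14-fold [2.003, 2.28]. In zebrafish klf2b and klf17 are known to act in enveloping layer differentiation, and klf17 was at 230 CPM in the wild-type library and 120 CPM in MZdicer embryos, a ratio that was not called. The higher ones were TP63, a master regulator of basal keratinocytes, by 6.33-fold [4.80, 8.46], and CHUK, a kinase needed for keratinocyte differentiation in mouse, by 2.77-fold [2.60, 2.95]. With the duplex 1 of the 13 was called against MZdicer, TP63, which was 4.51-fold lower [3.53, 5.80]. This count lies near the 7.51% of all measured genes called there and is no result about the list. TP63 was also the 1 gene called with the hairpin, 2.43-fold lower [1.99, 2.98], where 2.48% of all measured genes were called. With the 3xPS hairpin 0 of 13 were called, where 1.54% of all measured genes were.

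Among 13 measured structural genes of the layer, 5 of which are keratins described above, 3 were called lower and 1 higher in MZdicer, where 5.81% and 16.3% of all measured genes were. The median log2 ratio of the list was -0.57. agr1 was at 30.2 CPM in the wild-type library and 6.62 CPM in the MZdicer library, then 17.1 CPM after duplex, 5.64 CPM after hairpin and 6.01 CPM after 3xPS hairpin injection. It was the 1 gene of this list called with the duplex against MZdicer, 2.58-fold higher [2.07, 3.24], where 7.51% of all measured genes were called. The plakin gene evpla, which encodes an envoplakin that links keratin filaments to cell junctions, was 2.14-fold lower in MZdicer [2.07, 2.20], and krt17 was the third. CAP1, which encodes an actin-binding protein, was 5.22-fold higher [4.69, 5.81]. Neither hairpin had a called gene of this list against MZdicer, where 1.54% to 2.48% of all measured genes were called. This absence lies near that share and is no result about the list.

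Desmosomes, to which keratin filaments attach, were covered by 9 measured genes, of which 2 were called lower and 0 higher in MZdicer, beside 5.81% and 16.3% of all measured genes. The median log2 ratio of these 9 was -0.80. The plakophilin gene PKP1 was at 49.8 CPM in the wild-type library and 24.5 CPM in the MZdicer library, then 55.7 CPM after duplex, 34.7 CPM after hairpin and 29.3 CPM after 3xPS hairpin injection. It was the 1 gene of the 9 called with the duplex against MZdicer, 2.27-fold higher [2.02, 2.55]. This count lies near the 7.51% of all measured genes called there and is no result about the list. The desmoplakin gene DSP (ENSDARG00000022309) was at 572 CPM in the wild-type library, 285 CPM in MZdicer embryos and 438 CPM with the duplex, and at 270 and 330 CPM with the hairpin and the 3xPS hairpin. It was called lower in MZdicer, by 2.01-fold [1.94, 2.08]. Both genes called lower lay at the 2-fold threshold, with log2 ratios of -1.005 for PKP1 and -1.003 for DSP. Their calls therefore depend on the scaling used.

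Tight junction genes and partners of Epcam were covered by 18 and 12 measured genes. Of the 18 tight junction genes 2 were called higher and 0 lower in MZdicer, where 16.3% and 5.81% of all measured genes were, and the median log2 ratio was -0.24. The 2 of 18 lie near that background and are no result about the list. They were cgna, a cingulin gene, by 5.65-fold [4.23, 7.63], and cldn7b, by 3.05-fold [2.94, 3.17]. Claudin 7 is a known binding partner of EpCAM in mammals. cldn7b was at 164 CPM in the wild-type library and 500 CPM in the MZdicer library, then 421 CPM after duplex, 506 CPM after hairpin and 495 CPM after 3xPS hairpin injection, so that its wild-type library was the lowest where that of epcam was the highest. Of the 12 genes for Epcam partners and adherens junctions 2 were called higher in MZdicer, again near the 16.3% of all measured genes, cldn7b and the protease inhibitor gene spint1b, by 2.65-fold [2.38, 2.96], and 0 lower, and the median log2 ratio was -0.05. No gene of either list was called in an injected library against MZdicer. Of all measured genes, 1.54% to 7.51% were called in those comparisons. Counts of 0 in lists this small lie near that share and are no result about them.

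Markers of the other cells of the embryo were set beside these values, and their part in the results was not tested. Of all measured genes 16.3% were called higher and 5.81% lower in MZdicer, and the counts of higher deep cell and yolk syncytial layer markers lie near that share. Of 13 deep cell markers 2 were called higher and 2 lower in MZdicer, and their summed level was 6142 CPM in wild type and 5131 to 5352 CPM in the MZdicer libraries. Of 6 markers of the yolk syncytial layer 1 was called higher and 0 lower, with sums of 3980 CPM in the wild-type library, 3630 CPM in MZdicer embryos and 4206 to 5140 CPM after injection. Of 8 germ cell markers 3 were called higher and 0 lower, with sums between 422 and 512 CPM. In wild type 1 gene made up the larger part of each of these sums. It was pou5f3 at 3277 CPM for deep cells, apoeb at 3370 CPM for the yolk syncytial layer and DDX4 at 299 CPM for germ cells. Of the 7 matched markers of blood and endothelium, which do not exist at this stage, LMO2 was measured, at 1.73 CPM in the wild-type library and 24.3 CPM in MZdicer embryos. The globin gene hbae3 was at 0 counts in every library.

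Profiles most like each gene were searched among 6393 genes with a symbol and a mean of at least 10 CPM. Clone or placeholder symbols, such as those starting with si: or zgc:, were left out. The measure was the root mean square difference of log2 levels, centred over the 5 libraries. How near the closest of so many profiles lies for other genes was not counted. The nearest 3 were RPLP0, RRP9 and eif4ebp3 for krt97, AK6, tiparp and NRARP for krt5, and exo1, B3GNT5 and C2H1orf35 for krt4. They were URI1, YBX1 and LIN9 for krt8 and SP5, EIF4A2 and mst1ra for cyt1. For epcam they were CSNK1A1, ftr86 and acy3.2. The difference between epcam and CSNK1A1 was 0.022, and the latter was at 189 CPM in the wild-type library and 62.4 CPM in the MZdicer library, then 65.4 CPM after duplex, 68.1 CPM after hairpin and 59.1 CPM after 3xPS hairpin injection. Within the set, krt4 and krt8 were the most alike, at 0.067, and cyt1 and epcam the least, at 0.50.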

How the data were processed

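Libraries were strand-specific and poly(A)-selected, per the labels' protocols. CASAVA 1.8.2, TopHat2 2.0.8 and build Zv9 (danRer7) are named in the submitters' processing notes. For the counting tool, strand and multiply mapped reads nothing is stated in the sources used here. There are 3 count and 3 RPKM columns in each table, per the file headers. The first column, deposited by the authors as whole counts, is the main one. The others hold estimated counts, deposited with fractional parts and rounded here when used as alternatives. The authors' RPKM were recomputed here as counts per length and per sum of their own column.

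TMM factors (0.967 to 1.02) came from edgeR 4.0.16 in R 4.3.3, which was used for scaling only. Log2 ratios, on which the calls rest, are differences of log2(CPM + 0.5), and folds are ratios of CPM. Intervals are exact conditional binomial, which treats reads as independent molecules although the libraries had no molecular identifiers. The calling was run on simulated Poisson counts, which follow the counting model of the intervals and hold no spread between embryo pools. That run therefore cannot show how the calls fare with such spread. Symbols came from a table covering 18804 of 26158 identifiers, so lists lost members (cdh1, for example).

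Members and lists were chosen with earlier results of these data known. Named were the 6 genes, all measured keratins (by the start of the symbol), up to 4 called genes with the largest ratios per list and comparison, the 3 most similar profiles per gene, and DICER1. Of the named list genes, those called against wild type after injection only, those of the other cell types except LMO2, and the reference genes are summarised or not described. klf17, cldne, grhl3, hbae3, pou5f3, apoeb and DDX4 were singled out from the lists after their values were seen. Alternatives were other scalings, count columns, RPKM, a 1.5-fold threshold, pseudocounts and filters. The background of genes with a mean of at least 100 CPM and the sum over the neighbours of cyt1 were added after the data were seen.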

Additional observations from a re-analysis of the deposited data

How the results depend on the processing

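Over the alternatives, 707 of the log2 ratios of single genes kept their direction and their side of the threshold, 10 passed the threshold in addition, and 3 changed sign. Of the 10, cyt1 in the 3xPS hairpin library against wild type did so with upper-quartile factors, at -1.01, and the others with a 1.5-fold threshold. The 3 were cyt1 with the duplex against wild type, at -0.023 with DESeq2 1.42.0 size factors and -0.091 with upper-quartile factors, and epcam with the hairpin against the duplex, at -0.0014 with upper-quartile factors. The 707 include checks that could not fail. All 6 genes passed the alternative filters, which leave their ratios and calls as they are, and the 1.5-fold threshold changes calls only. The RPKM largely repeat total-count scaling. With a 1.5-fold threshold the genes called were 4 for MZdicer, 2 for the duplex and 5 for the 3xPS hairpin when set against wild type, 1 for the duplex relative to MZdicer and 2 for the 3xPS hairpin relative to the duplex. The shares of all measured genes printed above are for the 2-fold threshold. These counts therefore have no background beside them and are no result about the 6 genes. The summed level of the 5 keratins in wild type was 8649 CPM with total-count scaling, 9194 with DESeq2 size factors and 9827 with upper-quartile factors. In the same order it was 6285, 6098 and 5999 CPM with the hairpin and 5487, 5398 and 5236 CPM with the 3xPS hairpin. With upper-quartile factors it was 5525 CPM in MZdicer and 7207 CPM with the duplex. Those factors shifted the median log2 ratio of all genes by -0.19 for MZdicer, -0.10 for the duplex, -0.16 for the hairpin and -0.18 for the 3xPS hairpin against wild type. The share of higher calls in MZdicer then was 57.9% in place of 73.8%, and 9.50% of genes were called lower in place of 5.81%. For the hairpin against wild type that share was 54.9% in place of 69.7%, and for the 3xPS hairpin 57.5% in place of 73.1%. The cause was not tested. Counts of list members called were taken for each list, direction and setting. They cover only MZdicer against wild type and the 3 injected libraries against MZdicer. These counts moved in 83 cases and did not in 1165, where a change of up to 1.5-fold was taken as not moved. All 50 shares of single keratins recomputed from the other 2 count columns moved by more than the counting error of that keratin in the first column. The columns are not independent counts, so this is not the error of the difference. The share of krt8, whose count was the same in all 3 columns, was 33.8%, 32.2% and 32.1% in wild type from the 3 columns in turn. No paired analysis was possible because each group has 1 library. Nor can a library be left out, and the intervals leave the spread between embryo pools unmeasured.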
